A study of Mus musculus with 2 samples.

Results

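The 7 genes described here encode the chains of the basement membrane and beaded filament collagens: *Col4a1* and *Col4a2* of type IV, *Col6a1*, *Col6a2* and *Col6a3* of type VI, and *Col15a1* and *Col18a1*, the multiplexins. They were found by their symbols and are 7 of the 19465 genes counted. Their raw unique molecular identifiers (UMIs, each of which stands for 1 captured molecule) were summed over 3 tissue classes of each section. Bone spots were those listed by the authors at the fracture site, the rim held the other spots within 250 μm of a bone spot, and the remaining spots were all others. The remaining spots include the skeletal muscle around the femur, whose marker genes took 31.5% of their UMIs in Control and 21% in Loaded.

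Type IV collagen forms the sheet-like network of basement membranes, the thin matrix on which endothelium, muscle fibers, fat cells and Schwann cells rest. Type VI collagen is built from the products of *Col6a1*, *Col6a2* and *Col6a3* and assembles into beaded filaments close to cells in muscle, tendon and other connective tissue. Types XV and XVIII lie in basement membrane zones, and their C-terminal ends can be released as endostatin-like fragments. In bone, type IV is known mainly from vessels and marrow, and type VI from the surroundings of bone-forming and connective tissue cells.

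The data came from FFPE (formalin-fixed, paraffin-embedded) sections of healing mouse femurs, 1 section of 1 Control mouse and 1 section of 1 Loaded mouse, measured with the probe-based Visium assay on a grid of spots 100 μm apart. Both animals were female bone cell reporter (BCR) mice, which carry fluorescent tags at *Ibsp* and *Acp5*, received an osteotomy of the femur with an external fixator at 12 weeks of age, and were 17 weeks old at the end. From bridging of the defect onward, the Loaded mouse received cyclic mechanical loading through the fixator and the Control mouse sham-loading without force. With 1 section per condition no test was possible, and section, mouse and loading cannot be told apart in any difference between Loaded and Control.

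Of 1962 Control spots, with 9002147 UMIs, 1898 passed the limits of 500 UMIs and 250 genes per spot, as did 1431 of 1436 Loaded spots, with 4910716 UMIs. The classes held 131 bone, 253 rim and 1514 remaining spots in Control and 146, 264 and 1021 in Loaded, with a median of 2132 to 3478 UMIs per spot. Bone spots carried UMIs of all 8 osteoblast and all 8 osteoclast markers measured, and also of muscle, since 22 skeletal muscle genes took 16.3% of the bone UMIs in Control and 8.62% in Loaded. The 7 collagen genes together took 0.275% of the UMIs of bone spots in Control and 0.264% in Loaded, against 0.0828% and 0.116% in the remaining spots. Levels are given as normalized UMIs per spot, that is, summed UMIs divided by summed scran size factors. Their intervals are exact 95% Poisson intervals, and they cover counting error only. Each section was also cut into 4 blocks, numbered 1 to 4, along the long and short axes of its bone spots, and the spread of these blocks describes variation within a section. A spot can hold several cells, so fewer cells of a type and less RNA per cell cannot be told apart.

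The members lie on 4 chromosomes of the GRCm38 (mm10) build. *Col4a1* (chr8:11198423-11312826, minus strand) and *Col4a2* (chr8:11312805-11449287, plus strand) start head to head. *Col6a1* (chr10:76708792-76726168) and *Col6a2* (chr10:76595762-76623630) are neighbors on the minus strand of chromosome 10, where *Col18a1* (chr10:77052178-77166548, minus strand) also lies. *Col6a3* (chr1:90765923-90843971, minus strand) and *Col15a1* (chr4:47208161-47313167, plus strand) stand apart from the others. The starts of the type IV pair and the bases upstream of the type VI genes are shown because each set is built into a common molecule. A further reason is that the levels of the type VI genes were closely correlated across blocks. The sequences are those of RefSeq for GRCm38.p6. The type IV starts lie at chr8:11312801-11312830 and are printed on the plus strand. The 22 bases that lie within both genes in the GENCODE M21 annotation are in capitals. RefSeq places the outer end of *Col4a1* at chr8:11312889, so that by RefSeq the shared part reaches past the printed bases. The type VI stretches lie at chr10:76726169-76726294, chr10:76623631-76623880 and chr1:90844002-90844221. Each lies upstream of the annotated starts of its own gene in GENCODE and RefSeq, and other genes were not looked up there. These stretches are printed on the minus strand, with a matched motif in capitals.
Col4a1 and Col4a2 starts: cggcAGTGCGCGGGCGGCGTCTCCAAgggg
Col6a1: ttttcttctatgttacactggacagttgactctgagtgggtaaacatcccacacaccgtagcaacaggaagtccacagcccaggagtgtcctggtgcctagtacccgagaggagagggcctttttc
Col6a2: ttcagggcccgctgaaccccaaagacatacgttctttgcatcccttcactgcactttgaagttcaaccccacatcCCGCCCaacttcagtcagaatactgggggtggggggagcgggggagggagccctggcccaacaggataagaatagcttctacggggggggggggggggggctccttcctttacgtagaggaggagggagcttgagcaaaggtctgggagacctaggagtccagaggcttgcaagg
Col6a3: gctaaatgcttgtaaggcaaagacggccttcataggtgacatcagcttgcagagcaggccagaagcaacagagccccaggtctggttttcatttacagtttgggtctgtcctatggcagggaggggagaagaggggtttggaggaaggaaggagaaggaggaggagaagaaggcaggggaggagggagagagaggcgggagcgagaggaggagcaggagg

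4 motifs were searched on both strands of these stretches: the CCAAT box (CCAAT), the GC box (GGGCGG), the TATA box (TATAAA) and the AP-1 site (TGACTCA). The type IV starts held 1 GC box, which lay within the shared bases. Of 32851 promoter windows, 5.77% held at least 1 on either strand at the same place and length. The stretch before *Col6a2* held 1 GC box, on the other strand, and 32.7% of windows of the same length held at least 1 on either strand. None of the 4 motifs was found before *Col6a1* or *Col6a3*, where 13.5% and 28.5% of windows of the same length held a GC box. The levels of the type VI genes had Spearman correlations of 0.882 to 0.897 with each other over the 24 blocks of both sections. *Col4a1* and *Col4a2*, with their shared start, had a correlation of 0.600. These correlations are descriptions, since the blocks come from only 2 libraries.

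Type VI collagen was counted most at the bone and less with every class away from it in both sections. *Col6a1* was at 1.65 normalized UMIs per spot in Control bone spots (95% interval 1.46 to 1.85, 286 UMIs), 1.17 in the rim and 0.556 in the remaining spots. *Col6a2* was at 2.10 (1.89 to 2.32, 364 UMIs), 1.61 and 0.833. *Col6a3*, which encodes the longest of the 3 chains, was at 2.87 (2.62 to 3.13, 498 UMIs), 2.23 and 1.13. In all 3 genes the intervals of the classes did not overlap within the Control section, while the blocks did. The Loaded section had the same order: *Col6a1* was at 1.28 (1.09 to 1.49, 165 UMIs), 0.889 and 0.607, and *Col6a2* at 1.5 (1.29 to 1.72, 193 UMIs), 1.35 and 0.795. Loaded *Col6a3* was at 3.52 (3.21 to 3.86, 455 UMIs), 2.22 and 1.25. The bone and rim intervals of *Col6a2* overlapped in Loaded, so that these neighbors in the order did not differ beyond counting error. *Col6a1* was detected in 68.7% of Control and 46.6% of Loaded bone spots, and *Col6a3* in 80.9% and 66.4%, at median depths of 3478 and 2621 UMIs per spot.

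**Figure D1:**
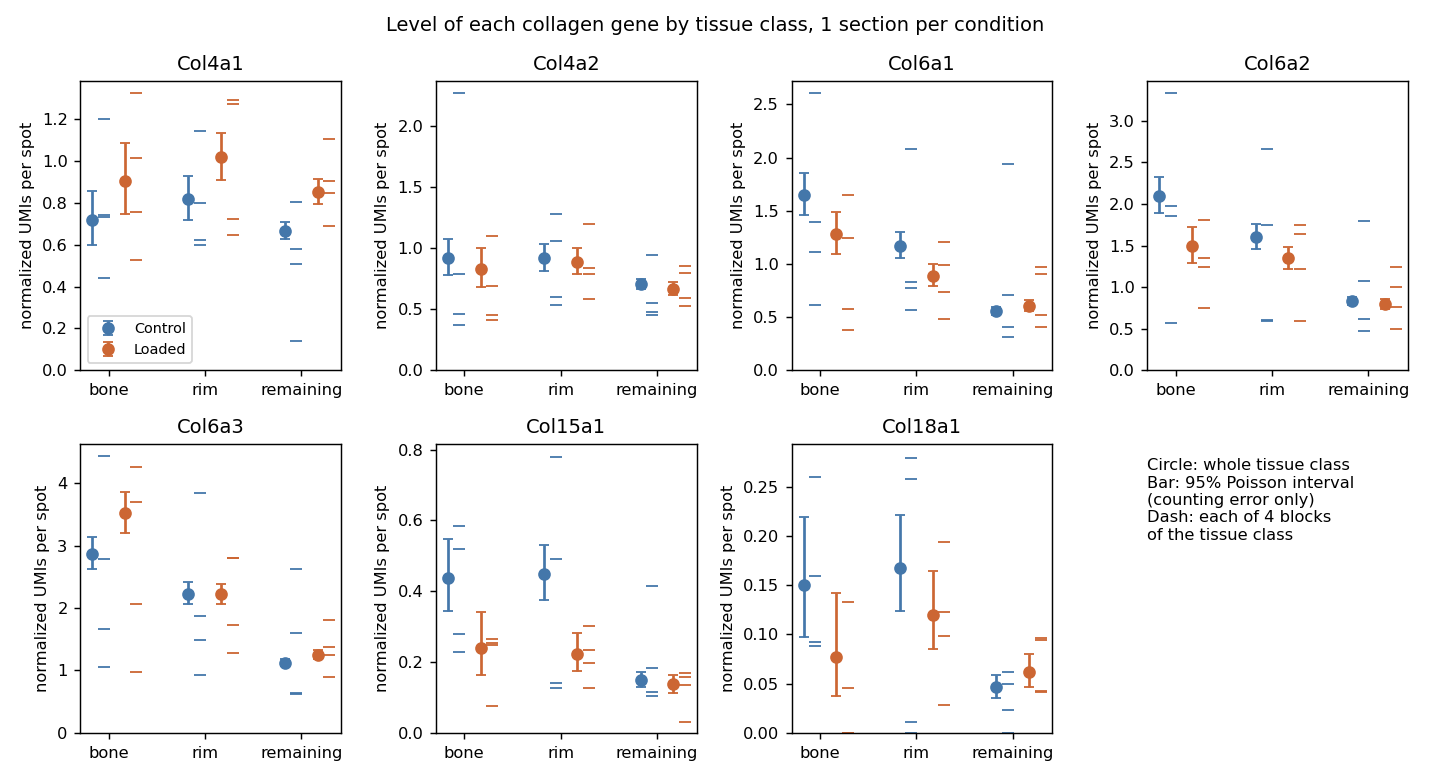
Normalized UMIs per spot (y axis) of each collagen gene in bone, rim and remaining spots (x axis) of the Control (blue) and Loaded (orange) sections. Circles are whole tissue classes with 95% Poisson intervals for counting error, and dashes are the 4 blocks of each class. The type VI genes were highest in bone spots of both sections, such as *Col6a3* at 2.87 and 3.52, while *Col4a1* and *Col4a2* stayed between 0.667 and 1.02 in every class.

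Against the remaining spots, *Col6a1* was 2.96-fold higher in Control bone spots (log2 ratio 1.57, 95% interval 1.37 to 1.76), *Col6a2* 2.52-fold (1.33, 1.16 to 1.5) and *Col6a3* 2.55-fold (1.35, 1.20 to 1.49). These intervals are exact conditional binomial intervals for counting error. In Loaded, the same ratios were 2.11-fold (1.07, 0.82 to 1.33), 1.88-fold (0.91, 0.68 to 1.14) and 2.82-fold (1.49, 1.33 to 1.65). With the 2 multiplexins, 5 of the 7 members were higher by a log2 ratio over 0.5 in Control bone spots, and none was lower, where 23.6% of 14033 genes were higher and 28.2% lower. In Loaded, 4 members were higher, against 26.7% of all genes, and none was lower, against 22.4%. The median log2 ratio of the 7 members was 1.35 in Control and 0.81 in Loaded, and that of all genes was -0.09 and 0.07. Between the rim and the remaining spots, 5 members were higher and none lower in each section, where 23.7% of all genes were higher and 22.0% lower in Control and 18.8% and 18.6% in Loaded. The step from rim to bone was smaller. No member was past the same limit in Control, where 10.8% of all genes were higher and 20.9% lower, with *Col6a1* at a log2 ratio of 0.49 (0.26 to 0.72). In Loaded, *Col6a1* (0.52, 0.24 to 0.81) and *Col6a3* (0.67, 0.50 to 0.84) were higher in bone than in rim, against 18.0% of all genes, and *Col18a1* was lower (-0.63, -1.80 to 0.40), against 16.6%.

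Muscle genes took 16.3% of the UMIs in Control bone spots and 31.5% in the remaining spots. In Control, the contrast was smaller against remaining spots of low muscle share. There were 585 Control remaining spots with a muscle share below 10%, a limit chosen after the values were seen. The log2 ratios of bone over these remaining spots were 0.80 for *Col6a1*, 0.61 for *Col6a2* and 0.497 for *Col6a3*, the last within the limit. Those of rim over remaining spots were 0.31, 0.23 and 0.13, and only the multiplexins stayed past the limit there. In Loaded there were 405 such spots. The Loaded ratios of bone over these spots were 0.88 for *Col6a1*, 0.81 for *Col6a2* and 1.27 for *Col6a3*, and those of rim over them 0.36, 0.66 and 0.60. The part of muscle in the contrast was not tested.

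The type VI genes varied more between the blocks of the bone spots than between the sections. Their summed level in Control bone was 2.24, 4.63, 6.16 and 10.4 normalized UMIs per spot in blocks 1 to 4. Block 4 held 781 of the 1148 type VI UMIs in 44 of the 131 bone spots. In Loaded bone the blocks were at 7.71, 2.10, 3.89 and 6.30. The blocks of the sections overlapped. In the rim, the Control blocks were at 2.09, 2.86, 4.45 and 8.58 and the Loaded blocks at 5.76, 2.36, 3.68 and 5.42, so that block 4 was also the highest Control block there. Of the remaining spots of Control only 7 fell in block 4, with 46 type VI UMIs and a level of 6.36 against 1.42 to 3.37 in the other blocks. For *Col6a3* alone, the Control bone blocks were at 1.06, 1.67, 2.79 and 4.44 and the Loaded ones at 4.25, 0.977, 2.07 and 3.70. Control block 4 also held the largest share of tendon markers among the Control bone blocks, at 0.708% of UMIs against 0.0683% in block 1. Its osteoclast (0.689%) and osteoblast (0.165%) shares were the largest too, and its muscle share was the smallest (6.35% against 28.5% in block 1). The part of these tissues in the type VI level of the block was not tested. Without Control block 4, the log2 ratios of bone over remaining spots in Control were 0.74 for *Col6a1*, 0.47 for *Col6a2* and 0.57 for *Col6a3*, and those of rim over remaining spots were 0.35, 0.35 and 0.31.

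Type IV collagen was nearly even across the classes. *Col4a1* was at 0.720 normalized UMIs per spot in Control bone (0.600 to 0.858, 125 UMIs), 0.820 in the rim and 0.667 in the remaining spots. *Col4a2* was at 0.916 (0.779 to 1.07, 159 UMIs), 0.916 and 0.703. In Loaded, *Col4a1* was at 0.906 (0.750 to 1.09, 117 UMIs), 1.02 and 0.853, and *Col4a2* at 0.829 (0.679 to 1.00, 107 UMIs), 0.886 and 0.667. The log2 ratios of bone over remaining spots were 0.11 (-0.17 to 0.38) and 0.38 (0.13 to 0.62) in Control and 0.09 and 0.31 in Loaded, none past the limit of 0.5. With the remaining spots of low muscle share, the Control ratios were -0.25 for *Col4a1* and -0.14 for *Col4a2*. With library totals the Control ratios were 0.73 and 1.00, past the limit, where the median of all genes was 0.53. The highest type IV block in Control bone was not block 4 but block 3, at 3.47 against 0.900 to 1.52 in the others. Block 3 held the largest endothelial (0.122%), mural (0.107%), fibroblast (0.477%) and Schwann (0.137%) shares of the 4 blocks. *Col4a2* alone was at 2.27 there, with 70 of its 159 bone UMIs. The endothelial markers, all 12 of which had UMIs in the bone spots of both sections, had summed levels of 2.29, 2.37 and 1.98 normalized UMIs per spot in Control bone, rim and remaining spots and 2.66, 2.25 and 2.22 in Loaded. Their part in the type IV levels was not tested.

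The multiplexins had the fewest UMIs, and in Control were about as high in the rim as in the bone spots. *Col15a1* was at 0.438 normalized UMIs per spot in Control bone (0.345 to 0.548, 76 UMIs) and 0.448 in the rim (0.374 to 0.531, 131 UMIs), against 0.150 in the remaining spots. *Col18a1* was at 0.150 (0.0979 to 0.220, 26 UMIs), 0.167 and 0.0461. The bone and rim intervals overlapped in both genes. *Col18a1* in Control was the only member whose bone blocks lay wholly above the blocks of the remaining spots, as for 1.10% of all genes. Its bone blocks were at 0.0882 to 0.259 and its remaining blocks at 0 to 0.0617. The lowest bone block, at 0.0882, rested on 5 UMIs, and block 2, at 0.0927, on only 1 UMI. In Loaded, *Col15a1* was at 0.240 (0.163 to 0.341, 31 UMIs), 0.224 and 0.137, and *Col18a1* at 0.0775 (0.0371 to 0.142, 10 UMIs), 0.120 and 0.0619. The Loaded bone over remaining ratio of *Col18a1* rested on block 1, which held 8 of the 10 bone UMIs: it was 0.32 on the log2 scale and -1.07 without that block. The Control rim blocks of *Col15a1* ranged from 0.127 to 0.779, and those of *Col18a1* from 0 to 0.280, with the high values in blocks 3 and 4.

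The distance from the nearest bone spot showed where the levels changed. The summed type VI level in Control was 6.61 in bone spots, 5.70 up to 100 μm away, 4.19 from 100 to 200 μm, 2.43 from 200 to 300 μm and 1.89 from 300 to 500 μm. It was higher again beyond 1000 μm, at 2.81. The Loaded values were 6.30, 5.28, 3.62, 2.91 and 2.86 over the same rings, and 2.37 beyond 1000 μm. Most of the step thus lay within 300 μm of the bone in both sections. Over the same rings from bone to 500 μm, the muscle list took 16.3%, 16.1%, 22.2%, 27.0% and 31.9% of the UMIs in Control. In Loaded it took 8.62%, 9.90%, 14.8%, 17.2% and 18.7%. The part of muscle in this course was not tested. The multiplexin sum in Control was highest just outside the bone, at 0.713 up to 100 μm against 0.588 in the bone spots, and was 0.210 from 200 to 300 μm. In Loaded it was 0.420 up to 100 μm and 0.259 from 200 to 300 μm. Type IV changed least, between 1.13 and 1.84 in Control and between 1.47 and 2.04 in Loaded, with the highest ring up to 100 μm from the bone in both.

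**Figure D2:**
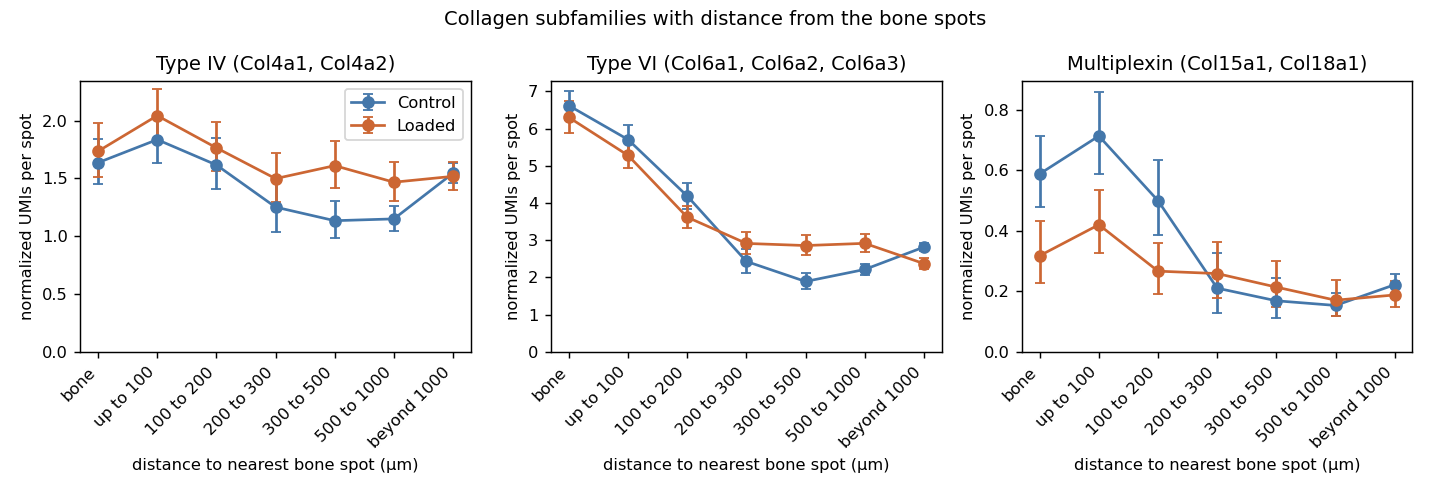
Normalized UMIs per spot (y axis) of the type IV, type VI and multiplexin sums in bone spots and in rings of distance to the nearest bone spot (x axis, μm, rings of unequal width). Points are rings of the Control (blue) and Loaded (orange) sections, with 95% Poisson intervals for counting error. Type VI went from 6.61 and 6.30 in bone spots to 2.43 and 2.91 at 200 to 300 μm, and the multiplexins in Control from 0.713 to 0.210.

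The rim differed between its sides in Loaded. The convex outline of the bone spots splits the rim into spots between the bone spots and spots outside them. The type VI sum in Loaded was 2.29 (2.0 to 2.61) in the 121 spots between the bone and 5.43 (5.12 to 5.75) in the 143 spots outside. In Control it was 4.78 (4.36 to 5.24) in 140 spots and 5.12 (4.81 to 5.45) in 113. Type IV in Loaded was 1.18 between the bone and 2.23 outside, and the multiplexin sum was 0.203 and 0.407. The granulocyte list took 1.29% of the UMIs between the bone in Loaded, against 0.308% in Control, and its part in the difference was not tested. The Loaded bone over rim calls of *Col6a1* and *Col6a3* were not past the limit when only rim spots outside the outline were used.

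Ratios between members within a class do not depend on size factors. A ratio of 2 genes depends on their probes, so it is compared only between regions. *Col6a3* stood at 1.74 UMIs per UMI of *Col6a1* in Control bone spots (1.5 to 2.02) and at 2.76 in Loaded bone spots (2.30 to 3.32). The rim values were 1.90 (1.67 to 2.18) and 2.49 (2.17 to 2.87). Blocks did not overlap in either class, with 1.5 to 2.0 against 2.59 to 3.57 in bone and 1.65 to 2.27 against 2.33 to 2.83 in the rim. Loaded bone blocks 2 and 3, at 2.60 and 3.57, rested on only 5 and 7 UMIs of *Col6a1*, and Control bone block 2, at 1.5, on 12. Among genes with at least 200 UMIs over both sections, 4.31% of 626 in bone and 0.897% of 1784 in the rim had a ratio to *Col6a1* that was higher in Loaded with no overlap of blocks. In the remaining spots the ratio was 2.03 (1.86 to 2.20) in Control and 2.06 (1.86 to 2.29) in Loaded. Leaving out 1 block at a time kept the bone ratio between 1.70 and 1.82 in Control and between 2.65 and 3.02 in Loaded.

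The difference in this ratio was also seen in parts of the bone spots, chosen after the values were seen. In the bone spots with a muscle share below 5%, 14 in Control and 22 in Loaded, it was 2.05 (1.59 to 2.66) and 2.94 (2.19 to 3.98), with overlapping intervals. In the bone spots of larger osteoblast share it was 1.78 (1.46 to 2.17) in Control and 2.66 (2.16 to 3.30) in Loaded. In those of smaller share it was 1.69 (1.35 to 2.13) and 3.05 (2.12 to 4.48). The intervals overlapped slightly in both parts. The osteoblast list took 0.188% and 0.684% of the UMIs in the part of larger share and 0.0299% and 0.209% in the other. The sections thus differed in osteoblast share in both parts. In the remaining spots the ratio varied with the tissue: it was 3.57 in Control and 3.28 in Loaded in spots rich in osteoclast markers and 2.97 in both in spots rich in osteoblast markers, but 1.66 and 1.91 in spots rich in tendon markers and 1.63 and 1.40 in spots rich in fibroblast markers. The highest ratios were those of muscle-rich spots, at 4.42 and 8.25, on 12 and 4 UMIs of *Col6a1*. Spots rich in granulocyte markers had 4.33 and 1.5, on 6 and 12 UMIs of *Col6a1*. In bone spots, tendon markers took 0.345% of the UMIs in Control and 0.163% in Loaded, fibroblast markers 0.318% and 0.194%, osteoblast markers 0.0962% and 0.466%, osteoclast markers 0.387% and 0.484%, and muscle genes 16.3% and 8.62%. Their part in the bone ratio was not tested.

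*Col6a2* stood at 1.27 UMIs per UMI of *Col6a1* in Control bone (1.09 to 1.49) and 1.17 in Loaded bone (0.945 to 1.45). *Col4a2* stood at 1.27 UMIs per UMI of *Col4a1* in Control bone (1.00 to 1.62), 1.12 in the rim and 1.05 in the remaining spots, and at 0.915 (0.697 to 1.20), 0.870 and 0.781 in Loaded. It was lower in Loaded in all 3 classes, with separate intervals only in the remaining spots (0.966 to 1.15 and 0.702 to 0.869), and with overlapping blocks in each. The ratio of type IV to type VI UMIs was 0.247 in Control bone, 0.347 in the rim and 0.544 in the remaining spots, and 0.276, 0.428 and 0.573 in Loaded. Its order over the classes was the same in both sections, while the bone value in Control ranged from 0.185 to 0.463 as 1 block at a time was left out. *Col18a1* stood at 0.342, 0.374 and 0.308 UMIs per UMI of *Col15a1* in Control bone, rim and remaining spots and at 0.323, 0.535 and 0.452 in Loaded, with overlapping intervals in each class.

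**Figure D3:**
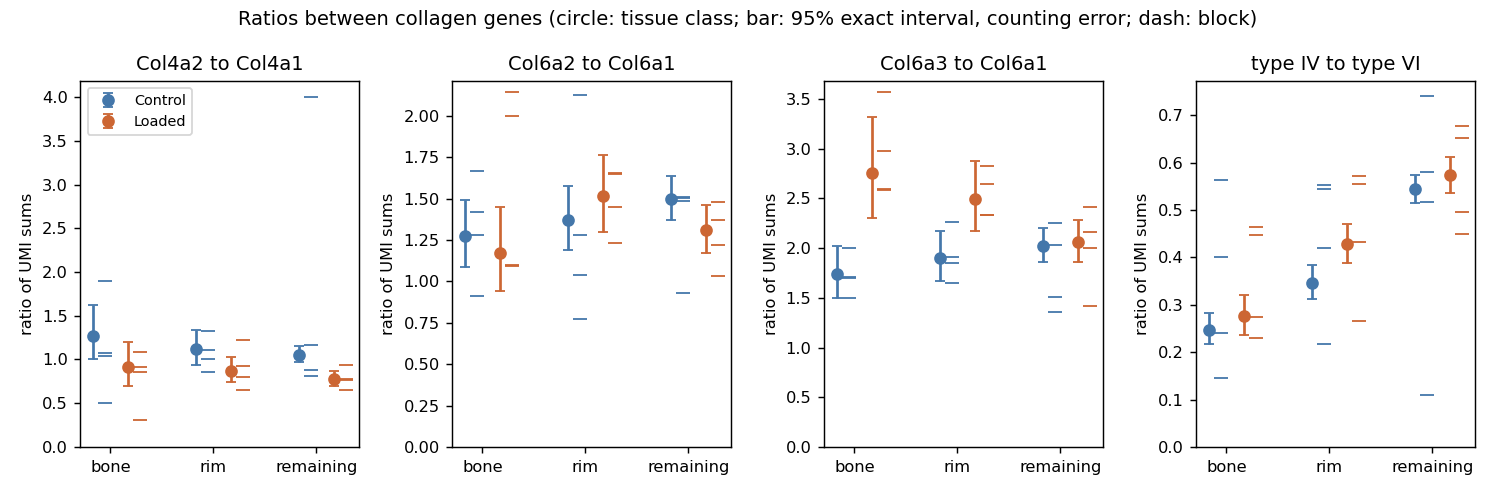
Ratios of summed UMIs (y axis) between member genes in bone, rim and remaining spots (x axis) of the Control (blue) and Loaded (orange) sections. Circles are tissue classes with exact 95% intervals for counting error, and dashes are blocks. The ratio of *Col6a3* to *Col6a1* was 1.74 in Control and 2.76 in Loaded bone spots, with no overlap of blocks in bone or rim. Loaded bone blocks 2 and 3 rested on 5 and 7 UMIs of *Col6a1*. The ratio of *Col4a2* to *Col4a1* was lower in Loaded in every class.

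The study set Loaded against Control bone spots to ask what loading does to the healing bone. The members did not move as 1 group in this comparison. *Col15a1*, at 0.438 in Control and 0.240 in Loaded bone spots, had a log2 ratio of -0.87 (-1.52 to -0.25). *Col18a1*, at 0.150 and 0.0775, had a ratio of -0.95 (-2.17 to 0.15), on 36 UMIs in all. These 2 of the 7 members were lower past the limit and none was higher, where 20.8% of 10003 genes were lower and 30.5% higher. *Col6a1* and *Col6a2* were lower within the limit, at -0.37 (-0.65 to -0.09) and -0.49 (-0.75 to -0.23), and *Col6a3* was higher within it, at 0.30 (0.11 to 0.48). *Col6a2* lay past the limit under several other scalings, at -0.65 with TMM factors, -0.57 with equal weight for every spot and -0.59 with size factors from the bone spots alone. *Col6a1* lay past it with the first 2 of these, at -0.53 and -0.79, but not with the third, at -0.47. *Col4a1* was at 0.33 (-0.04 to 0.71) and *Col4a2* at -0.14 (-0.51 to 0.22). The members had a median of -0.37 and all genes one of 0.12. No member had blocks that did not overlap between the sections, against 3.77% of genes with higher and 1.89% with lower blocks.

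Control block 4 carried the type VI values in this comparison. Without it the log2 ratios were 0.48 for *Col6a1*, 0.38 for *Col6a2*, 1.08 for *Col6a3* and -0.44 for *Col15a1*. *Col15a1* and *Col18a1* had negative ratios with every block left out in turn, from -1.17 to -0.44 and from -2.37 to -0.68. With only the bone spots of muscle share below 5%, *Col4a1* was at 0.93 and past the limit, *Col4a2* at 0.07, *Col6a1* at -0.80, *Col6a2* at -1.14, *Col6a3* at -0.28, *Col15a1* at -1.46 and *Col18a1* at -0.54. *Col4a2* was at 0.41 without Control block 3. Several lists moved with this comparison besides those given above: Schwann cell markers took 0.0791% of the bone UMIs in Control and 0.0266% in Loaded, granulocyte markers 0.111% and 0.443%, and the muscle list 16.3% and 8.62%. All 9 Schwann markers had UMIs in Control bone and 8 of 9 in Loaded, where *Sox10* was at 0, and all 10 fibroblast and all 10 granulocyte markers had UMIs in both. Of the 7 tendon markers, *Kera* was at 0 in Control bone. The part of these cells in the members' ratios was not tested.

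In the rim, *Col15a1* was at 0.448 in Control and 0.224 in Loaded, a log2 ratio of -1.0 (-1.44 to -0.57), and was the only member past the limit, where 20.9% of 11704 genes were lower and 20.3% higher. Its ratio was -0.30 without Control block 4. *Col6a1* was at -0.40 (-0.63 to -0.17), *Col6a2* at -0.25 (-0.45 to -0.06) and *Col6a3* at -0.01, and without Control block 4 they were at 0.34, 0.35 and 0.67. *Col4a1* was higher within the limit, at 0.31 (0.07 to 0.56). In the remaining spots no member was past the limit in either direction, where 22.2% of 15485 genes were higher and 18.5% lower, and *Col4a1* was again higher, at 0.36 (0.22 to 0.49). *Col4a1* thus had ratios of 0.31 to 0.36 in the 3 classes. With only spots of low muscle share, it was at -0.26 in the remaining spots and at 0.93 in the bone spots. In the remaining spots with a muscle share below 10%, *Col4a2* was at -0.94, *Col15a1* at -0.81, *Col6a2* at -0.69 and *Col18a1* at -0.58. *Col6a3* was at -0.47 and *Col6a1* at -0.45 there. The 3 comparisons share the sections but no spots. The sections also differed in marker shares outside bone. In the remaining spots of Control and Loaded, adipocyte markers took 0.181% and 0.0785% of UMIs, chondrocyte markers 0.0485% and 0.00365%, and Schwann markers 0.0141% and 0.0256%. In the rim, adipocyte markers took 0.0427% and 0.118%, and Schwann markers 0.0782% and 0.0249%. The part of these tissues in the members' ratios was not tested.

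**Figure D4:**
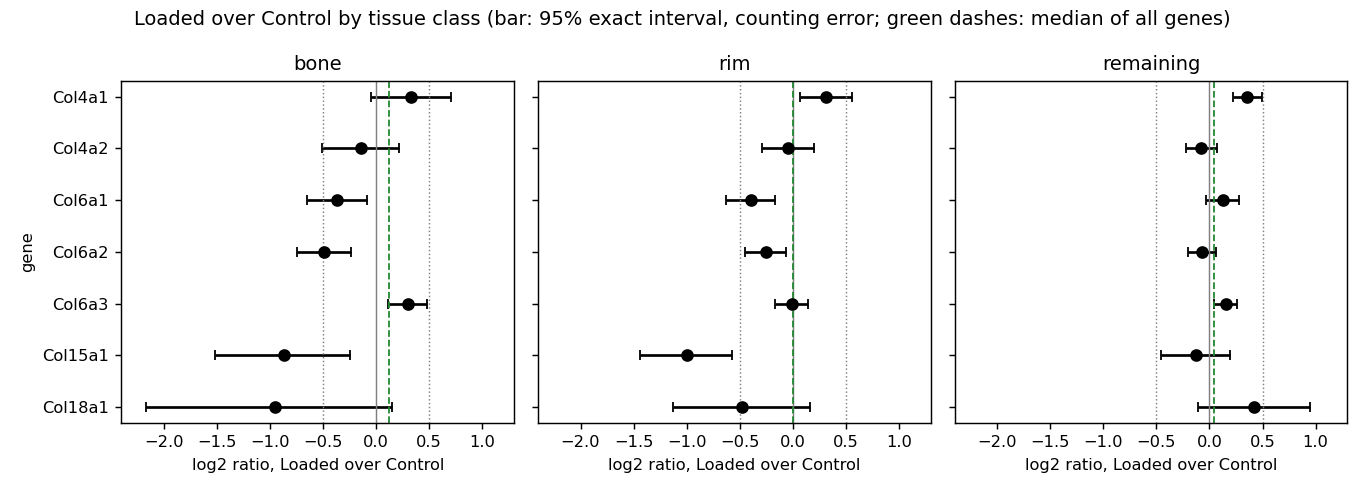
Log2 ratio of Loaded over Control (x axis) of each collagen gene (y axis) in bone, rim and remaining spots. Circles carry exact 95% intervals for counting error, dotted lines mark a log2 ratio of 0.5 in either direction, and green dashes the median of all genes tested. *Col15a1* was at -0.87 in bone and -1.0 in the rim but -0.13 in the remaining spots. There it was at 0.25 with library totals, where the median of all genes was 0.42, and at -0.81 in spots with a muscle share below 10%. *Col6a3* stood above *Col6a1* and *Col6a2* in bone and rim. In the remaining spots *Col6a3* was at 0.15 and *Col6a1* at 0.13, with overlapping intervals.

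The molecules that these collagens bind were followed as lists. Values with single blocks left out are given for the members only, not for these lists. The 27 basement membrane partners include the other type IV chains, the laminins, nidogens and perlecan. Of the 17 with enough UMIs in bone spots, 10 were lower and 2 higher in Loaded, where 20.8% of all genes were lower and 30.5% higher, with a median log2 ratio of -0.69 against 0.12 over all genes. *Lama4* (-1.19) and *Lamb1* (-1.06), which encode laminin chains of vessel walls and other basement membranes, and *Fbln1* (-1.63), the matrix protein fibulin, were among them. *Hspg2*, which encodes perlecan, was at -0.19 and *Tinagl1* at 0.20. *Sparc*, whose product binds collagens and is abundant in bone matrix, was higher, with 8.97 normalized UMIs per spot in Control and 14.3 in Loaded (log2 ratio 0.68). In the rim, 8 of 19 were lower and none higher, where 20.9% of all genes were lower and 20.3% higher. In the remaining spots 3 of 25 were lower and 4 higher, near or below the 18.5% and 22.2% of all genes. The type IV chains *Col4a3*, *Col4a4*, *Col4a5* and *Col4a6* had 0 to 3 UMIs in the bone spots of either section, so that type IV was counted almost wholly as *Col4a1* and *Col4a2*.

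Of the 14 type VI chains and partners, 8 of 11 were lower and 1 higher in Loaded bone spots, against the same 20.8% and 30.5% of all genes, with a median of -0.74 against 0.12. *Matn4*, a matrilin of the pericellular matrix, had 60 UMIs in Control and 4 in Loaded (log2 ratio -3.48, -5.40 to -2.05), the lowest of this list, followed by *Matn2* (-1.19), which binds type VI filaments. *Col14a1*, a fibril-associated collagen of tendon and skin, was at -0.98. *Antxr1*, a cell surface receptor for type VI collagen, was at -0.68, *Cspg4*, the NG2 proteoglycan, at -0.45 and *Tnxb* at -0.36. Tendon and fibroblast shares were also lower in Loaded bone spots, as given above. Their part in these list values, and that of Control block 4, was not tested. In the rim 3 of 12 were lower, against 20.9% of all genes, and in the remaining spots 4 of 13 were higher, against 22.2%. *Col6a4*, *Col6a5* and *Col6a6*, the alternative partners of *Col6a1* and *Col6a2*, had at most 1 UMI in the bone spots of either section.

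Among 14 receptors of basement membranes, 5 of 13 were lower and 2 higher in Loaded bone spots, where 20.8% of all genes were lower and 30.5% higher, with a median of -0.06 against 0.12. *Itga7*, the laminin-binding integrin chain of muscle, had 56 UMIs in Control and 9 in Loaded (log2 ratio -2.21, -3.41 to -1.18), and its Loaded blocks all lay below its Control blocks, as for 1.89% of all genes. *Itgb4* was at -1.48 and *Sdc2* at -0.98. *Itgb1*, the partner chain of most of these integrins, was at 0.09, and the syndecans *Sdc1* and *Sdc4* were at 0.83 and 0.45. Compared with the remaining spots, 9 of 12 type VI chains and partners were higher in Control bone, with a median of 1.48, as were 12 of 24 basement membrane partners (0.67) and 4 of 14 receptors (0.06), where 23.6% of all genes were higher. In Loaded bone these counts were 3 of 12 (0.21), 4 of 22 (0.04) and 3 of 14 (-0.17), all near or below the 26.7% of all genes.

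Outside bone and rim, the levels of the members differed with the markers of the spots. In each section the 5% of the remaining spots with the largest share of a marker list, 76 spots in Control and 51 in Loaded, were set against all remaining spots. Type IV was 2.51-fold and 1.89-fold higher in fibroblast-rich spots of Control and Loaded, 2.10-fold and 2.42-fold in spots rich in mural cells of vessels, and 1.87-fold and 1.52-fold in endothelium-rich spots. It was 2.46-fold higher in adipocyte-rich spots of Control and 1.34-fold in Loaded. Type VI was at 3.84-fold and 2.41-fold in tendon-rich spots, the highest of the 12 lists in Control, and at 2.66-fold and 2.48-fold in osteoclast-rich spots, the highest in Loaded. In osteoblast-rich spots it was at 3.29-fold and 1.95-fold. Type IV was at 1.46 and 1.04 times the level of all remaining spots in osteoclast-rich spots and at 1.32 and 0.788 times in osteoblast-rich ones. *Col6a3* alone was at 3.44-fold and 3.04-fold in osteoclast-rich spots, and *Col6a1* at 1.95-fold and 1.91-fold. *Col15a1* was at 3.28-fold and 2.59-fold in tendon-rich spots, on 23 and 30 UMIs. *Col18a1* was at 3.82-fold and 4.16-fold in spots rich in mural cell markers, on only 13 and 14 UMIs. In Control it was close to that in tendon-rich spots too, at 3.70-fold on 8 UMIs. In muscle-rich spots all members were below the level of all remaining spots, with type IV at 0.552 and 0.599 times and type VI at 0.474 and 0.402 times. The multiplexins were near the floor there, with 5 and 2 UMIs of *Col15a1* and 0 and 1 of *Col18a1* in Control and Loaded.

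**Figure D5:**
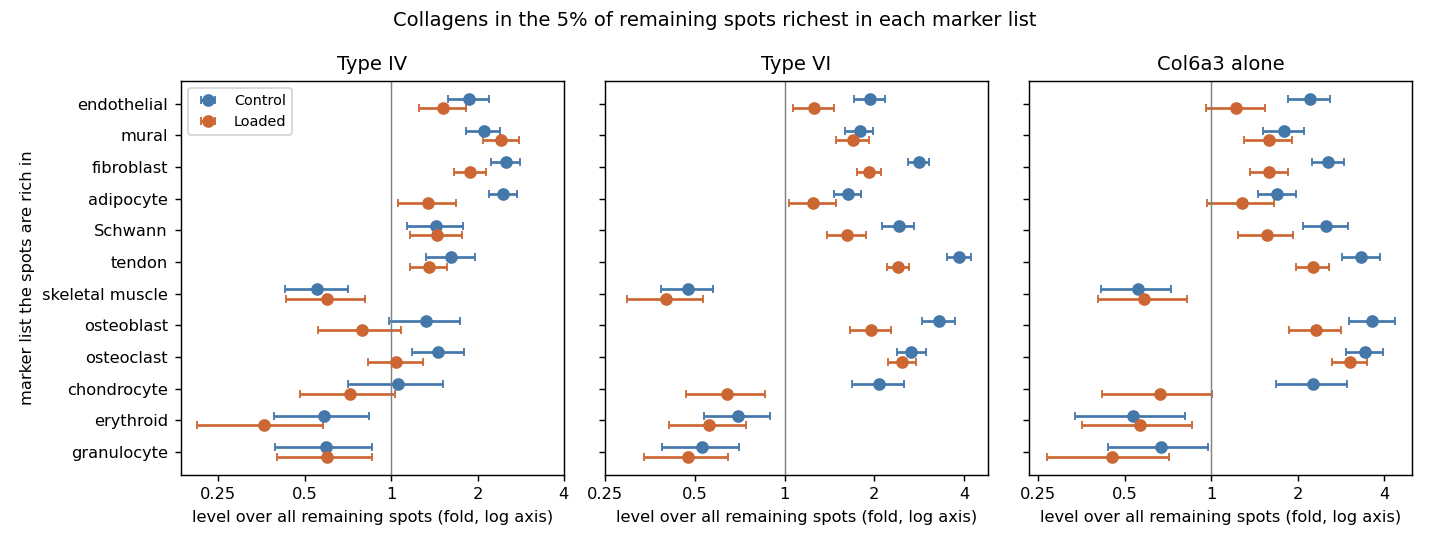
Level in the 5% of remaining spots richest in each marker list (y axis) over the level in all remaining spots (x axis, fold, log axis) for type IV, type VI and *Col6a3* in the Control (blue) and Loaded (orange) sections. Bars are 95% intervals for counting error in the marker-rich spots alone. Type VI was at 3.84 and 2.41 in tendon-rich and 2.66 and 2.48 in osteoclast-rich spots, and both types were below 1 in spots rich in muscle, erythroid or granulocyte markers.

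The genes whose levels over the 24 blocks were most like the type VI sum, among 4323 genes with at least 500 UMIs, were *Pmepa1* and *Crtap*, each with a Spearman correlation of 0.929, *Lum* (0.922), *Sparc* (0.911) and *Thbs2* (0.908). *Crtap* encodes a protein that modifies collagen in the endoplasmic reticulum, and *Lum* the proteoglycan lumican, which is also 1 of the 10 fibroblast markers. The multiplexin sum was most like *Bgn* (0.897), *Cavin3* (0.885), *Islr* (0.872), *Igfbp7* (0.870) and *Cd9* (0.867). For type IV the correlations were lower, with *Npdc1* (0.760), *Flna* (0.750), *Dpysl2* (0.747), *Rarres2* (0.741) and *Klf4* (0.738). Between members, *Col15a1* was close to the type VI genes, at 0.843 to 0.865, and closer than to *Col18a1*, at 0.646. *Col18a1* had 0 UMIs in some blocks, such as Control rim block 2 and Loaded bone blocks 2 and 3. Its correlations thus rest on few counts. *Col4a2* and *Col18a1* had a correlation of 0.733, and *Col4a1* and *Col6a1* one of 0.305. All of these are descriptions over blocks that share 2 libraries and their size factors.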

How the data were processed

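Visium libraries of 1 Control and 1 Loaded femur section were analysed. The authors counted UMIs with Space Ranger (2.0.0 per the file headers), and the deposited values are raw counts per gene and spot. The submitters' processing notes also name R 4.3.1, Seurat and the build mm10. Bone spots were taken from the barcodes in the authors' table, with their limits of 500 UMIs and 250 genes per spot. scran size factors (1.30.0, R 4.3.3) were computed over all spots of both sections, as the authors used scran. Their likelihood ratio test was left out, since it takes the spots of a section as replicates. A log2 ratio over 0.5, the authors' size limit, was counted as past the limit among genes with at least 10 UMIs over both regions, and a gene at 0 in 1 region was set to 3 UMIs as a bound. Alternatives used TMM factors (edgeR 4.0.16), library totals, other spots and each block left out. All 7 members were named in every comparison. Of each partner list, the 3 highest and 3 lowest of Loaded over Control in bone spots with at least 50 UMIs were named, together with the other type IV and VI chains and the 5 genes most like each type. The members and lists were chosen with earlier results of these data known. The 557 barcodes found in both sections are positions of the common slide layout, not shared cells. Gene positions came from GENCODE M21, where all 7 members matched by identifier. The computations were tested on simulated counts (Python 3.11.15; pandas 2.3.3, scipy 1.17.1, numpy 2.4.6, matplotlib 3.10.9). Section images were not used here.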

Additional observations from a re-analysis of the deposited data

How the results depend on the processing

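Counts of members past the limit are given as higher or lower. The share of all genes past the limit is not given for these settings. The counts therefore show how calls depend on processing and cannot be set against the shares in the report. No paired analysis was possible because each condition has 1 section. With bone spots of muscle share below 5%, Loaded over Control in bone gave 1 higher and 4 lower (0 and 2 in the report), bone over rim gave 4 higher and 1 lower in Control (0 and 0) and 0 lower in Loaded (1), and *Col18a1* in Loaded bone over rim turned from -0.63 to 0.057. TMM factors gave 4 lower in Loaded over Control bone, 1 higher in Control bone over rim and 1 higher in Loaded bone over rim (2). Equal weight for every spot gave 4, 3 and 2 lower in Loaded over Control bone, rim (1) and remaining spots (0), 3 higher in Control and 1 in Loaded bone over rim. Library totals gave 4 higher in Loaded over Control remaining spots and 3 in Control bone over rim. For bone over remaining spots they gave 7 higher in Control (5) and 6 in Loaded (4). For rim over remaining spots they gave 7 in Control and 6 in Loaded (5 in each). *Col4a1* and *Col4a2* were then at 0.73 and 1.00 in Control bone over remaining spots. Library totals also moved the median log2 ratio of all genes. It went from -0.09 to 0.53 for bone over remaining spots in Control. For Loaded over Control remaining spots it went from 0.04 to 0.42. Totals without the 20 most abundant genes gave 2 higher in Loaded over Control remaining spots and 1 in Control bone over rim. Totals without the muscle list gave the same counts there, and 1 higher in Loaded bone over rim. Both gave 6 higher in Control bone over remaining spots (5). For rim over remaining spots, the former gave 6 in each section. The latter gave 7 in Control and 6 in Loaded (5 in each). Without a filter on spots, 1 was higher in Control bone over rim. A rim of 400 μm gave 3 higher in Control and 0 lower in Loaded bone over rim, and 0 were higher in Loaded with a rim of 150 μm or only its outer side. Remaining spots of muscle share below 10%, added after the values were seen, gave 4 lower in Loaded over Control remaining spots (0) and 2 higher in Control rim over remaining spots (5). With 1 block left out, the counts ranged as follows. Loaded over Control gave 0 to 1 higher and 1 to 5 lower in bone, 0 to 1 higher and 0 to 4 lower in the rim, and 0 to 5 higher and 0 to 1 lower in the remaining spots. Bone over rim gave 0 to 1 higher in Control and 1 to 2 higher and 0 to 1 lower in Loaded. Rim over remaining spots gave 2 to 7 higher in Control and 2 to 6 in Loaded, and bone over remaining spots 5 to 6 higher in Control and 3 to 6 higher and 0 to 1 lower in Loaded. In Loaded over Control bone, 3 were lower, *Col6a2* being the third, with scran over the bone spots alone, without a filter on spots, and with totals without the 20 most abundant genes or without the muscle list.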
